A study of Mus musculus with 49 samples.

Results

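Long-term haematopoietic stem cells (LT-HSC) and short-term haematopoietic stem cells (ST-HSC) from normal mouse bone marrow were compared by RNA sequencing, with 5 samples of each among the 49 samples of the series. Of the 38253 genes in the table, 12717 averaged 1 FPKM or more in these 10 samples and made up the comparison. FPKM is a count of fragments scaled to transcript length and to the sequencing depth of the sample. The series asked how the cell in which the MLL-AF9 fusion gene is introduced shapes the leukaemia that follows, and its 10 groups hold 6 normal populations and leukaemias started from 4 of them. Both stem cell groups were of genotype WT and strain C57BL/6J, aged 6 to 12 weeks, and the labels name neither the fusion gene nor a treatment for them. Per the study's methods the mice were female, an individual mouse gave each sample, and both populations were sorted from lineage-depleted marrow as Lin- Sca-1+ c-Kit+ CD150+ cells, the LT-HSC as CD34- or CD34-low and the ST-HSC as CD34+. RNA was amplified before sequencing, and how many LT-HSC went into a sample is not given in the sources used here.

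LT-HSC sit at the top of the blood-forming hierarchy. They divide rarely, and a single cell can rebuild the blood of an irradiated host for its lifetime and in further hosts. ST-HSC rebuild all lineages for a limited time, divide more often and lie closer to the multipotent progenitors (MPP), from which the common myeloid progenitors (CMP), granulocyte-macrophage progenitors (GMP) and megakaryocyte-erythrocyte progenitors (MEP) arise. Early progenitors often carry low amounts of transcripts of the lineages they can still form, which is called lineage priming.

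The number of reads behind each sample was not part of the values. Depth relative to the median of the 10 samples, estimated from the smallest steps between low FPKM values, ranged from 0.875 to 1.38, and 15927 to 16715 genes were above 0 in a sample. Transcripts of mature blood cells divided the samples by replicate number. S100a8, a calcium-binding protein of neutrophils, was at 6.49, 11, 10.9, 20265 and 10324 FPKM in LT-HSC replicates 1 to 5 and at 11.6, 41.3, 352, 12626 and 2201 FPKM in ST-HSC replicates 1 to 5. The 24 late granulocyte genes took 0.0133% to 0.199% of the summed FPKM in replicates 1 to 3 and 1.36% to 9.49% in replicates 4 and 5 of both groups, while Ly6g, the antigen recognised by granulocyte antibodies, was listed at 0 in LT-HSC replicates 1 to 3 and ST-HSC replicates 1 and 2. Haemoglobin transcripts divided the samples less cleanly, with Hbb-b1 at 788, 49, 214, 44047 and 24474 FPKM in LT-HSC and 109, 3769.6, 48.8, 24164 and 3781 FPKM in ST-HSC, so that ST-HSC replicate 2, poor in granulocyte transcripts, stood level with replicate 5. Of the 24 granulocyte genes 0 were called in either direction by limma, beside 0.252% lower and 0.0629% higher of all genes. With levels this far apart within each group, 0 calls do not show equal levels. The number of genes called is also given below without replicates 4 and 5.

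**Figure D1:**
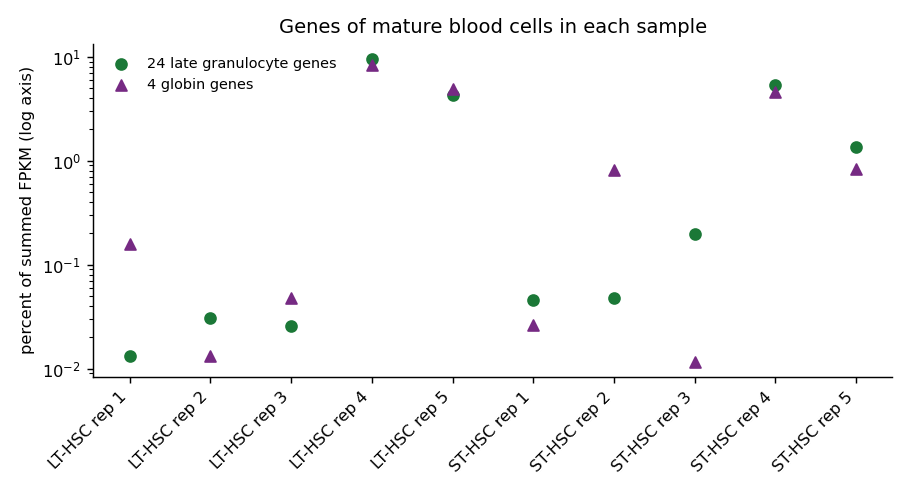
Percent of each sample's summed FPKM (log axis) held by 24 late granulocyte genes (circles) and 4 globin genes (triangles) in the 10 samples. Replicates 4 and 5 of both groups lie at 1.36% to 9.49% for the granulocyte genes, and every other sample at or below 0.199%.

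The sort was checked against the genes of its markers. Cd34 (ENSMUSG00000016494, chr1:196765015-196787486, plus strand, NCBIM37, which is mm9) was at 7.53, 12.6, 13.6, 11.2 and 18.1 FPKM in LT-HSC replicates 1 to 5 and at 44.1, 108, 106, 55.9 and 83.9 FPKM in ST-HSC replicates 1 to 5. The groups did not overlap (log2 change -2.53 ± 0.28 (SE), adjusted p = 0.019), which is a check of the labels and not a result, since the gate was set on this protein. Slamf1, which encodes CD150, was at 10.2, 17, 11.4, 4.94 and 10.9 FPKM in LT-HSC and 15.8, 4.79, 9.31, 6.64 and 8.97 FPKM in ST-HSC, with overlapping groups. Kit was at 103, 151, 152, 43.2 and 86 FPKM in LT-HSC and 120.3, 125, 107, 75.5 and 109 FPKM in ST-HSC, lowest in replicate 4 of each group, and Ly6a, which encodes Sca-1, was present in every sample at 47.1 to 143 FPKM. All 10 samples held transcripts of the sorted antigens.

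More genes were called lower than higher in LT-HSC, a balance that depended on the correction applied. At an adjusted p below 0.05 and a log2 change beyond 1, limma called 8 genes higher in LT-HSC, which is 0.0629% of the 12717 genes tested, and 32 genes lower, which is 0.252%. The 5 values of one group lay above all 5 of the other in each of these 40 genes, as they did over all genes tested for 99 genes (0.778%) with LT-HSC above and 339 (2.67%) with LT-HSC below. The median log2 change over all genes was -0.11, and median-ratio scaling of the samples moved it to 0.01 and left 1 call, Cd34, so the split between higher and lower calls went from 8 and 32 to 0 and 1. Correction for GC content and length gave 22 higher and 27 lower genes, and together with the replicate block 46 higher and 23 lower, the reverse balance. With the replicate number as a block 30 genes were higher (0.236%) and 47 lower (0.37%), and 34 of the 40 were called again. Without replicates 4 and 5 of both groups 30 genes of 12588 were higher (0.238%) and 83 lower (0.659%), with 22 of the 40 among them. The adjusted p values of the 40 genes lay between 0.019 and 0.049, and no gene was called once LT-HSC replicate 1, 2 or 3 or ST-HSC replicate 2, 3 or 5 was left out, although 1036 to 1638 genes then had an unadjusted p below 0.05. Of the 8 genes 1 averaged below 1 FPKM in ST-HSC, and of the 32 genes 5 did so in LT-HSC, so these passed the minimum through the other group. Among them Ccdc68 and Gm11505 are marked below. The rest are not marked, so a lower gene given below without its FPKM values may have passed only through ST-HSC. None of the 40 changed direction in any of these fits, and in a fit of all 6 normal groups together all 40 were called.

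**Figure D2:**
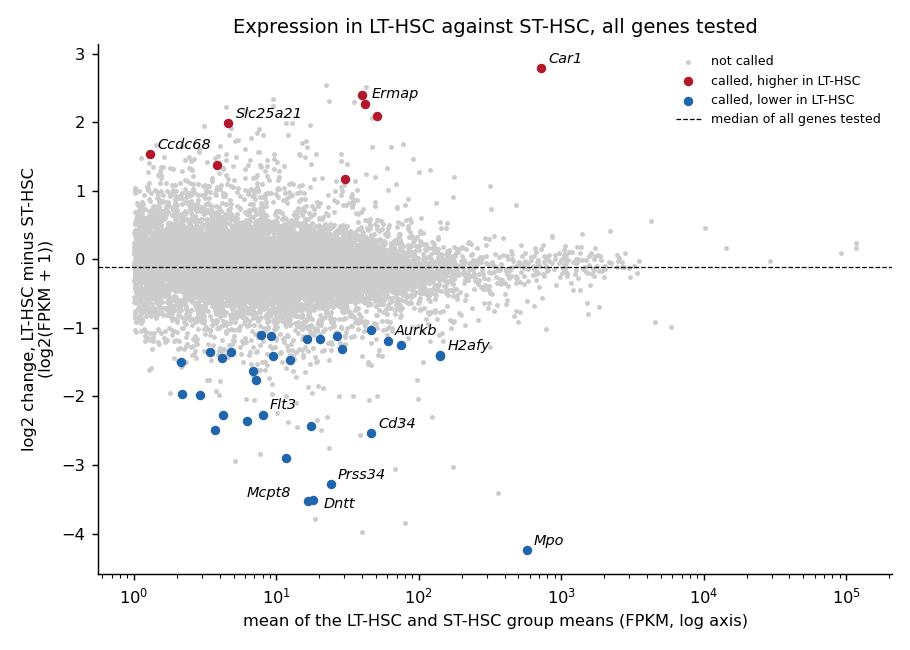
Log2 change (LT-HSC minus ST-HSC) of the 12717 genes tested against the mean of both group means (FPKM, log axis), with 8 genes called higher in red, 32 called lower in blue and the median of all genes, -0.11, as a dashed line. The called genes spread further down than up, from Mpo at -4.24 to Car1 at 2.79.

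Genes of the myeloid granule program were lower in LT-HSC. Mpo (ENSMUSG00000009350, chr11:87607083-87617915, plus strand), the peroxidase of the azurophil granules of neutrophils and monocytes, was at 24.3, 6.7, 92.2, 209.8 and 83.9 FPKM in LT-HSC replicates 1 to 5 and at 421, 777, 1392, 984 and 1722 FPKM in ST-HSC replicates 1 to 5. The highest LT-HSC value, in replicate 4, was below the lowest ST-HSC value, and the change was 18.9-fold (log2 change -4.24 ± 0.76 (SE), adjusted p = 0.048 by limma). Nkg7, a membrane protein of cytotoxic granules, was at 95.1, 55.2, 75.6, 72.6 and 80.3 FPKM in LT-HSC and 139, 168, 210.3, 216 and 294 FPKM in ST-HSC (log2 change -1.40 ± 0.21 (SE), adjusted p = 0.041 by limma), again without overlap. Of 25 granule and myeloid priming genes tested these 2 fell and 0 rose, beside 0.252% and 0.0629% of all genes, with a median log2 change of -1.11 beside -0.11 for all genes.

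Several other members passed with the replicate number as a block, where 0.37% of all genes were called lower. The neutrophil proteases Ctsg (cathepsin G, -3.85, adjusted p = 0.056 and 0.025 with the replicate block), Elane (neutrophil elastase, -3.03, 0.113 and 0.032) and Prtn3 (proteinase 3, -2.03, 0.062 and 0.025) and the membrane protein Ms4a3 (-2.35, 0.109 and 0.039) brought the list to 6 lower genes there. Without replicates 4 and 5 the list had 9 lower genes and 0 higher, beside 0.659% and 0.238% of all genes, with Mpo at -4.87 (adjusted p = 0.032). Within replicates 1 to 3 the late granulocyte genes summed to 122 to 249 FPKM in LT-HSC and 358 to 1632 FPKM in ST-HSC, and their median log2 change was -1.47 with 0 of 20 called. Over all 5 replicates their summed levels overlapped, from 122 to 90718 FPKM in LT-HSC and from 358 to 50559 FPKM in ST-HSC. With a late granulocyte score as covariate, 8 of the 25 granule and myeloid priming genes were called lower and 0 higher, with a median of -1.06. That fit called 101 lower and 61 higher of all 12717 genes. What part late granulocyte transcripts have in the lower myeloid genes was not tested further. Fewer cells that express a gene and less of its RNA in each cell cannot be told apart in these bulk samples.

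Several genes of mast cells and basophils also fell, and this group was chosen after their values were seen. Mcpt8 (ENSMUSG00000022157, chr14:56701003-56704053, minus strand), a protease that marks mouse basophils, was listed at 0 in LT-HSC replicates 1 and 2 and at 5.27, 6.3 and 1.15 FPKM in replicates 3 to 5, against 41.3, 30.8, 47.6, 18.4 and 14.5 FPKM in ST-HSC replicates 1 to 5 (log2 change -3.52 ± 0.59 (SE), adjusted p = 0.044 by limma). Prss34, a second basophil protease, was at 1.3, 0.24, 4.18, 12.9 and 4.51 FPKM in LT-HSC and 73.3, 22.2, 64.2, 23.1 and 34.9 FPKM in ST-HSC (log2 change -3.28 ± 0.58 (SE), adjusted p = 0.048 by limma). Both separated the groups completely.

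Cpa3, the carboxypeptidase of mast cell granules, was at 8, 1.36, 7.19, 6.24 and 2.94 FPKM in LT-HSC and 22.6, 31.1, 44, 18.4 and 33.1 FPKM in ST-HSC (log2 change -2.43 ± 0.37 (SE), adjusted p = 0.041 by limma). Clnk, a signalling adaptor of mast cells and lymphocytes, fell by 2.36 on the log2 scale, and with a pseudocount of 0.1 its change was -3.41 without a call (adjusted p = 0.088 by limma). Ms4a2, the beta chain of the high-affinity IgE receptor, fell by 1.98. The alpha chain of that receptor, Fcer1a, was lower as well but with overlapping groups and no call (log2 change -2.04 ± 0.54 (SE), adjusted p = 0.125 by limma). In all, 5 of the 10 genes tested were called lower, also with the block, and 6 of 10 without replicates 4 and 5, where Mcpt8, Prss34 and Cpa3 changed by -4.45, -4.30 and -2.54 (adjusted p = 0.025, 0.021 and 0.055). The list was made after its values were seen, so setting these counts beside 0.252%, 0.37% and 0.659% of all genes is no test of it. Of its 16 genes 6 were below the minimum of 1 FPKM, and median-ratio scaling left 0 of the 10. The 16 genes summed to 51.2, 83.3, 73.8, 809 and 379.6 FPKM in LT-HSC replicates 1 to 5 and to 278, 207, 313, 589 and 313 FPKM in ST-HSC replicates 1 to 5. The sums overlapped between the groups through LT-HSC replicates 4 and 5.

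Among 18 lymphoid priming genes 3 were called lower and 1 higher in LT-HSC, beside 0.252% and 0.0629% of all genes, with a median log2 change of -0.28. Without replicates 4 and 5, 4 of 17 were called lower and 0 higher, beside 0.659% and 0.238% of all genes. Dntt (ENSMUSG00000025014, chr19:41103765-41134013, plus strand), the terminal transferase that adds bases at the joints of antigen receptor genes, was at 0.84, 0.32, 0.82, 3.86 and 2.82 FPKM in LT-HSC replicates 1 to 5 and at 10, 67.5, 54.8, 13.8 and 24.8 FPKM in ST-HSC replicates 1 to 5 (log2 change -3.51 ± 0.54 (SE), adjusted p = 0.041 by limma). Flt3, the cytokine receptor that rises as stem cells turn into multipotent progenitors, was at 1.06, 1.39, 2.98, 2.3 and 1.94 FPKM in LT-HSC and 7.42, 20.9, 21.3, 7.32 and 13.3 FPKM in ST-HSC (log2 change -2.27 ± 0.33 (SE), adjusted p = 0.041 by limma). Neither gene overlapped between the groups, and without replicates 4 and 5 they changed by -4.41 and -2.57 (adjusted p = 0.025 and 0.036).

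Cd27, a receptor of the tumour necrosis factor family that is found on lymphoid-primed progenitors, was at 34.6, 68.6, 43.6, 31.4 and 46.4 FPKM in LT-HSC and 94.8, 113, 117, 81.7 and 118 FPKM in ST-HSC (log2 change -1.25 ± 0.21 (SE), adjusted p = 0.044 by limma, 0.075 without replicates 4 and 5). Ltb, which encodes lymphotoxin beta, went the other way, at 3.66, 5.79, 5.76, 8.87 and 5.56 FPKM in LT-HSC and 1.94, 2.62, 1.09, 1.64 and 1.05 FPKM in ST-HSC (log2 change 1.37 ± 0.25 (SE), adjusted p = 0.049 by limma), a call that was lost with the replicate block (adjusted p = 0.053).

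**Figure D3:**
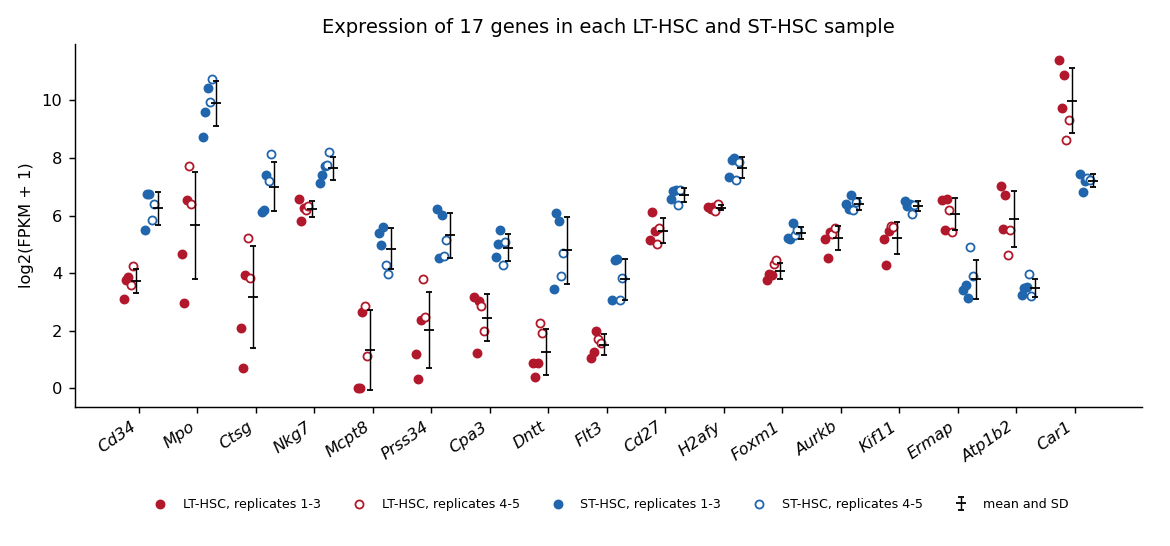
log2(FPKM + 1) of 17 genes in each LT-HSC (red) and ST-HSC (blue) sample, with replicates 4 and 5 as open circles and the mean and SD of each group in black. The 17 genes are a selection, and in each the LT-HSC points lie wholly below or wholly above the ST-HSC points. Over all genes tested 2.67% lay wholly below and 0.778% wholly above. The spread within LT-HSC is widest for Mpo, Ctsg and Mcpt8.

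Genes of mitosis had lower levels in LT-HSC, and 1 of 30 passed the test. Aurkb (ENSMUSG00000020897, chr11:68859149-68865166, plus strand), a kinase of the chromosomal passenger complex that governs chromosome attachment, was at 35.4, 21.9, 42.3, 39.8 and 46.9 FPKM in LT-HSC replicates 1 to 5 and at 84.1, 74, 105, 71.7 and 86.7 FPKM in ST-HSC replicates 1 to 5 (log2 change -1.19 ± 0.20 (SE), adjusted p = 0.046 by limma). Foxm1, a transcription factor that drives genes of the G2 and M phases, was at 12.6, 14.8, 14.1, 18.8 and 20.7 FPKM in LT-HSC and 36.6, 35.6, 52.6, 38.8 and 43.7 FPKM in ST-HSC (log2 change -1.31 ± 0.18 (SE), adjusted p = 0.037 by limma). LT-HSC replicate 2 was lowest for Aurkb and replicate 1 for Foxm1, and neither gene overlapped between the groups. Without replicates 4 and 5 the changes were -1.41 and -1.50 (adjusted p = 0.052 and 0.025).

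All 30 mitosis genes had a negative log2 change, as had 65.5% of all genes tested. Of the 30, 1 (Aurkb) was called lower, beside 0.252% of all genes, and 12 had LT-HSC values wholly below the ST-HSC values, beside 2.67% of all genes. Their median log2 change was -0.91, -1.28 without replicates 4 and 5 and -0.77 after median-ratio scaling. Top2a, the topoisomerase that untangles replicated DNA, was at 80.7, 44.7, 116, 134 and 111 FPKM in LT-HSC and 182, 211, 226, 148 and 205 FPKM in ST-HSC (log2 change -1.07 ± 0.27 (SE), adjusted p = 0.109 by limma), and the motor protein gene Kif11 at 35.7, 18.4, 42.8, 48.8 and 47.3 FPKM and 90.8, 80, 83, 65.3 and 81.9 FPKM (log2 change -1.10 ± 0.24 (SE), adjusted p = 0.077 by limma). Mki67, the marker of cycling cells, overlapped between the groups only through LT-HSC replicate 4, at 86.7, 56.1, 123, 213 and 141 FPKM in LT-HSC and 217, 211, 209, 187 and 217 FPKM in ST-HSC (adjusted p = 0.227).

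Without replicates 4 and 5, where 0.659% of all genes were called lower, 5 of the 30 mitosis genes were called, all lower in LT-HSC. These were Kif23 (-1.90) and Prc1 (-1.36), which act in the central spindle at cytokinesis, Nusap1 (-1.63), a microtubule bundling protein, the spindle checkpoint kinase Ttk (-1.32) and the hyaluronan and spindle protein Hmmr (-1.36). Of 32 genes of DNA replication 31 had a negative log2 change and 0 were called in either direction, with a median of -0.46. Tyms, which makes thymidylate, and Uhrf1, which couples DNA methylation to replication, were the 2 without overlap between the groups, at log2 changes of -0.87 and -0.60. Over all genes 2.67% lay wholly lower in LT-HSC. Of 20 genes of G1 control 0 were called with a median of -0.19, and 2 lay wholly lower in LT-HSC, beside 2.67% of all genes. Cdk6, the cyclin D kinase, was 1 of these, at 126, 109, 146, 65 and 112 FPKM in LT-HSC and 173, 176, 199.9, 155 and 216 FPKM in ST-HSC (adjusted p = 0.140).

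Many promoters of the mitosis genes hold a short sequence that the comparison did not use. In the RefSeq promoters (GRCm38.p6, a later build than that of the expression table), the 250 bases before the start hold the 5 letters CCAAT on either strand in 21 of the 27 promoters listed for 26 of the mitosis genes (77.8%), in 7 of 15 promoters of 13 erythroid genes (46.7%) and in 33.8% of all 32851 promoters. CCAAT is the core of the site of the factor NF-Y and is known from promoters of cell cycle genes. The 4 mitosis genes with the largest change were taken among those without overlap between the groups and with the motif in the 120 bases before the start. Aurkb, without overlap and with a larger change (-1.19), did not enter, so the 4 are not the mitosis genes that changed most. Promoters on 1 chromosome were left out of this choice. The 120 bases before the start of the 4 genes are shown 5′ to 3′ on the strand of the gene, with CCAAT or its reverse complement ATTGG in capitals. They lie at chr19:37376262-37376381 on the plus strand for Kif11, at chr11:99024190-99024309 on the minus strand for Top2a, at chr9:70421555-70421674 on the minus strand for Ccnb2 and at chr9:83834569-83834688 on the plus strand for Ttk.
Kif11: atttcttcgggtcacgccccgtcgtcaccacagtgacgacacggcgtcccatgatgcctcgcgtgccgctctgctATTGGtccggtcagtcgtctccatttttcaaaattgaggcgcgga
Top2a: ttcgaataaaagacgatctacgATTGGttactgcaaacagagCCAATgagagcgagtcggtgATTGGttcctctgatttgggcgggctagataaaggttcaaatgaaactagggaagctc
Ccnb2: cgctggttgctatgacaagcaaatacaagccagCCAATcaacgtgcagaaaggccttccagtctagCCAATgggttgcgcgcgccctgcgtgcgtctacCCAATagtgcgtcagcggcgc
Ttk: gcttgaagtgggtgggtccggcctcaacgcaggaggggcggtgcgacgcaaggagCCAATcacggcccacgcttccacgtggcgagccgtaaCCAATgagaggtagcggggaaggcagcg
The motif occurs 1 time in the Kif11 stretch, 3 times in those of Top2a and Ccnb2 and 2 times in that of Ttk. A second motif of cell cycle promoters, TTTGAA, was found on either strand in 8 of the 27 (29.6%) and in 16.0% of all promoters. AGATAA, the motif read by GATA factors, was found in 1 of the 27 and in 5 of the 15 erythroid promoters (33.3%), beside 9.99% of all. Letters describe the sequence and do not show that a factor binds there.

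H2afy (ENSMUSG00000015937, chr13:56174980-56237722, minus strand), which encodes the histone variant macroH2A1, gave the lowest adjusted p after Cd34. It was at 77.2, 74.3, 76.8, 69.7 and 82.5 FPKM in LT-HSC replicates 1 to 5 and at 161, 243, 252.04, 148 and 230.2 FPKM in ST-HSC replicates 1 to 5 (log2 change -1.40 ± 0.17 (SE), adjusted p = 0.025 by limma). The LT-HSC samples lay between 69.7 and 82.5 FPKM, with replicates 4 and 5 at either end, and the change was -1.48 without replicates 4 and 5 (adjusted p = 0.025). Nrm, a protein of the inner nuclear membrane, was lower as well (log2 change -1.04 ± 0.16 (SE), adjusted p = 0.041 by limma).

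The genes that rose in LT-HSC included genes of the erythroid lineage. Car1 (ENSMUSG00000027556, chr3:14766217-14778459, minus strand), the carbonic anhydrase of red cells, was at 2679, 858, 1896, 395 and 640.3 FPKM in LT-HSC replicates 1 to 5 and at 173, 113, 148, 156 and 151 FPKM in ST-HSC replicates 1 to 5, a 6.91-fold change (log2 change 2.79 ± 0.44 (SE), adjusted p = 0.041 by limma). The LT-HSC samples differed among themselves, with replicates 1 and 3 highest and 4 lowest, whereas the ST-HSC samples lay close together. Ermap, a membrane protein of erythroid cells, was at 93, 44.7, 95, 71.3 and 41.9 FPKM in LT-HSC and 9.57, 10.9, 7.84, 28.9 and 13.8 FPKM in ST-HSC (log2 change 2.27 ± 0.34 (SE), adjusted p = 0.041 by limma). Of 19 erythroid genes all had a positive log2 change, beside 34.5% of all genes, 2 (Car1 and Ermap) were called higher and 0 lower, beside 0.0629% and 0.252% of all genes, and the median was 0.76. The list holds the globin genes. Without replicates 4 and 5 of both groups Hbb-b1 had a log2 change of -0.43, so not all 19 signs held, and the median was 0.69.

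With the replicate block 4 erythroid genes were called higher, beside 0.236% of all genes. The water channel Aqp1 (log2 change 1.63, adjusted p = 0.039 with the block) and the blood group protein Rhd (1.98, adjusted p = 0.044 with the block) came in addition. Klf1, the erythroid transcription factor, was at 61.3, 12.1, 33.1, 21.7 and 16.6 FPKM in LT-HSC and 5.21, 3.74, 6.21, 17.4 and 12.6 FPKM in ST-HSC, an overlap through replicates 4 and 5 of ST-HSC (adjusted p = 0.174). Epor, the erythropoietin receptor, and Car2, a second carbonic anhydrase, lay wholly higher in LT-HSC without a call (log2 changes 1.04 and 0.80, adjusted p = 0.132 and 0.058), while the master regulator Gata1 overlapped (30.2, 10.9, 22.1, 9.12 and 10.5 FPKM in LT-HSC and 15.7, 6.77, 14.9, 14.4 and 16.2 FPKM in ST-HSC). The globin genes followed another pattern, given above for Hbb-b1, and Car1 was lowest in the LT-HSC sample in which Hbb-b1 was highest. Without replicates 4 and 5 Car1 and Ermap changed by 3.51 and 2.85 (adjusted p = 0.011 and 0.011) and remained the 2 called genes of the list, beside 0.238% of all genes called higher.

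Of the other 6 genes called higher, Atp1b2, a beta subunit of the sodium pump, was at 129.5, 45.7, 104, 23.7 and 44 FPKM in LT-HSC and 8.53, 10.2, 10.4, 14.8 and 8.12 FPKM in ST-HSC (log2 change 2.40 ± 0.40 (SE), adjusted p = 0.044 by limma). Ces2g, a carboxylesterase, was at 144, 62, 126, 42.5 and 50.4 FPKM in LT-HSC and 26.9, 13.6, 13.5, 19.6 and 14.1 FPKM in ST-HSC (log2 change 2.09 ± 0.35 (SE), adjusted p = 0.044 by limma). Slc25a21, a mitochondrial carrier, was at 11.2, 6.2, 10.8, 6.32 and 5.08 FPKM in LT-HSC and 1.61, 1.95, 0.24, 1.93 and 0.72 FPKM in ST-HSC (log2 change 1.98 ± 0.31 (SE), adjusted p = 0.041 by limma). In all 3 the LT-HSC values lay wholly above, with replicate 1 highest, and the changes without replicates 4 and 5 were 3.01, 2.54 and 2.25 (adjusted p = 0.012, 0.025 and 0.043). Ccdc68, called higher by 1.54, was at 0.07 to 0.34 FPKM in ST-HSC, so it passed the minimum of 1 FPKM only through LT-HSC, and it lost its call with the block (adjusted p = 0.066). Gm12840, a processed transcript, rose by 1.17 and is uncertain, since 63.0% of its 31-base windows occur in another gene.

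No gene of the stem cell identity list was called in the comparison of 5 with 5. Of 41 tested 31 had a positive log2 change, beside 34.5% of all genes, 6 lay wholly higher in LT-HSC and 0 wholly lower, beside 0.778% and 2.67% of all genes, and the median was 0.48 beside -0.11 for all genes. Procr, which encodes the endothelial protein C receptor used to purify stem cells, was at 9.02, 29.6, 15.5, 8.54 and 9.36 FPKM in LT-HSC and 8.29, 7.12, 3.97, 4.98 and 5.34 FPKM in ST-HSC (log2 change 1.03 ± 0.32 (SE), adjusted p = 0.206 by limma). Mllt3, a chromatin factor that sustains stem cells and is itself a fusion partner of MLL as AF9, was at 82.5, 168, 85.1, 42.1 and 60.1 FPKM in LT-HSC and 32.4, 44.3, 26.5, 25.6 and 28.3 FPKM in ST-HSC (log2 change 1.33 ± 0.31 (SE), adjusted p = 0.092 by limma, 0.035 with the replicate block). LT-HSC replicate 2 was highest in both.

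The phosphatase Ptpn14 was the other gene of the list called with the block (log2 change 1.23, adjusted p = 0.045, and 0.096 without the block), where 0.236% of all genes were called higher. It was also the 1 gene of 43 called without replicates 4 and 5 (adjusted p = 0.042), beside 0.238% of all genes. The sulfotransferase Sult1a1 had the largest log2 change of the list at 1.84 ± 0.48 (adjusted p = 0.122). Other members of the list overlapped between the groups, among them transcription factors. Hlf was at 59.4, 182, 80.9, 35.1 and 70.1 FPKM in LT-HSC and 80.7, 103, 76, 49.6 and 72.5 FPKM in ST-HSC, and Mecom at 28.7, 131, 83.2, 13.8 and 38.2 FPKM and 91.3, 61.4, 50.2, 14.6 and 32.3 FPKM, both with replicate 2 of LT-HSC highest and replicate 4 of each group lowest. Meis1 had a log2 change of -0.71 ± 0.31 (adjusted p = 0.410).

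Imprinted genes, a network active in quiescent stem cells, had the highest median of the lists, 0.81 over 12 genes tested of 20, with 0 called, also without replicates 4 and 5, and 9 positive. Igf2, a growth factor expressed from the paternal allele, was at 3.51, 2.75, 4.55, 1.15 and 1.57 FPKM in LT-HSC and 0.53, 0.29, 0.45, 0.41 and 0.18 FPKM in ST-HSC (log2 change 1.35 ± 0.30 (SE), adjusted p = 0.081 by limma), and its scavenger receptor Igf2r was at 4.04, 6.59, 5.67, 6.69 and 3.58 FPKM and 1.64, 2.42, 2.27, 3.09 and 1.94 FPKM (log2 change 0.93 ± 0.22 (SE), adjusted p = 0.093 by limma). Neither overlapped between the groups, and they were the 2 of the list to lie wholly higher in LT-HSC, beside 0.778% of all genes. However, Igf2, below 1 FPKM in every ST-HSC sample, passed the minimum only through LT-HSC. Cdkn1c, the p57 cell cycle inhibitor, was at 3.36, 9.55, 3.22, 1.26 and 3.54 FPKM in LT-HSC and 1.73, 0.77, 1.03, 0.79 and 0.71 FPKM in ST-HSC (adjusted p = 0.176), with an overlap through LT-HSC replicate 4. The largest change of the list was that of the noncoding RNA Meg3 (1.46 ± 0.38, adjusted p = 0.122).

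Of 24 megakaryocyte and platelet genes 0 were called and 5 lay wholly lower in LT-HSC, beside 2.67% of all genes, with a median of -0.50. Itga2b, the integrin CD41, was at 16.8, 21.5, 36.8, 32.3 and 43.6 FPKM in LT-HSC and 101, 65.8, 74.1, 54.2 and 77.2 FPKM in ST-HSC (log2 change -1.33 ± 0.26 (SE), adjusted p = 0.058 by limma), and passed without replicates 4 and 5 (-1.70, adjusted p = 0.043), as did Plek, the platelet kinase substrate pleckstrin (-1.73, adjusted p = 0.041). Itga2b and Plek were the 2 genes of 24 called lower there, with 0 higher, beside 0.659% and 0.238% of all genes. The platelet chemokine Pf4 was at 207, 124, 241, 82.4 and 189.9 FPKM in LT-HSC and 1110.4, 437, 329.6, 209 and 249 FPKM in ST-HSC, highest in ST-HSC replicate 1 and overlapping. Vwf, the clotting factor that marks platelet-biased stem cells, had the opposite sign without a call (0.73 ± 0.37, adjusted p = 0.505).

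**Figure D4:**
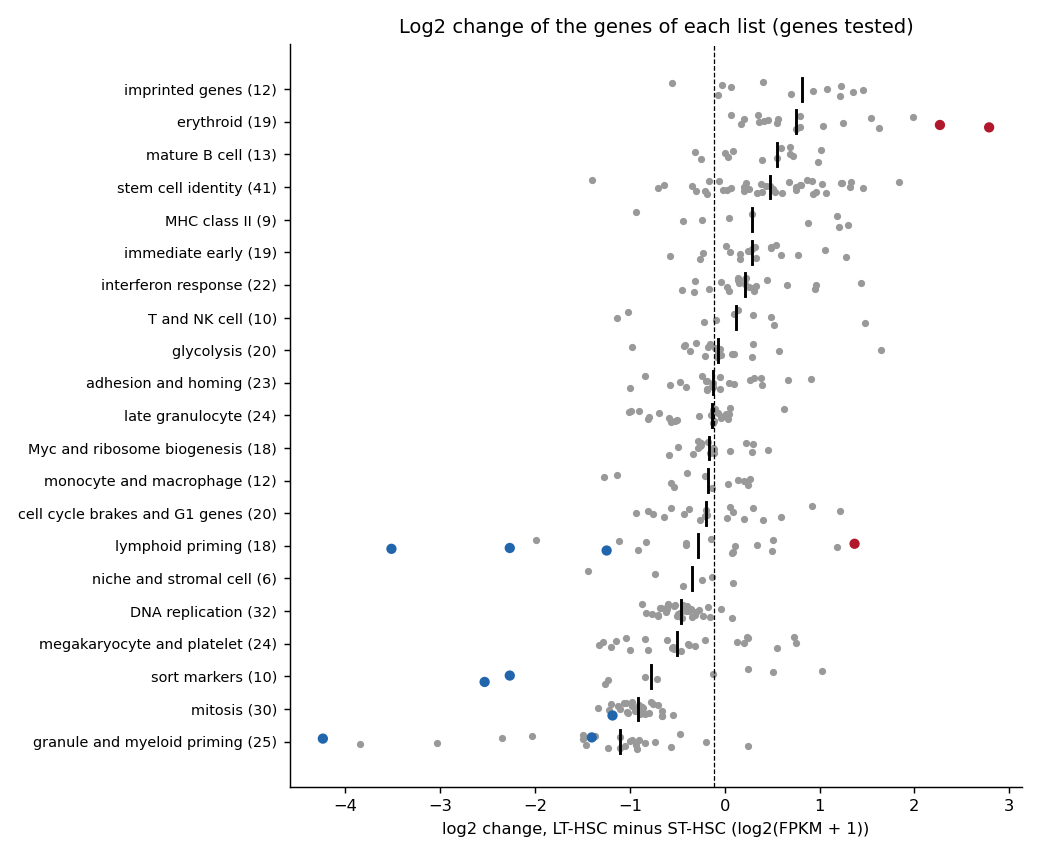
Log2 change (LT-HSC minus ST-HSC) of every tested gene of 21 lists, ordered by the median of the list (black bar), with the number of genes tested in brackets, called genes in red (higher) and blue (lower) and the median of all genes as a dashed line. Medians run from -1.11 for the granule and myeloid priming genes to 0.81 for the imprinted genes, and in most lists no gene was called.

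Beside the stem cell identity, imprinted, DNA replication and megakaryocyte lists, 12 other lists had 0 genes called by limma in the comparison of 5 with 5, where 1429 of all genes had an unadjusted p below 0.05. The medians of these 12 were 0.55 for 13 mature B cell genes, 0.29 for 9 MHC class II and 0.29 for 19 immediate early genes, 0.21 for 22 interferon response genes, 0.12 for 10 T and NK cell genes, -0.07 for 20 genes of glycolysis, -0.12 for 23 of adhesion and homing, -0.14 for the 24 late granulocyte genes, -0.17 for 18 genes of Myc and ribosome biogenesis, -0.17 for 12 monocyte and macrophage genes, -0.19 for the G1 genes and -0.34 for 6 niche and stromal cell genes. The mature B cell median was -0.34 without replicates 4 and 5. In the same comparison Ms4a6c, H2-Ob and Pgam1 were called lower in LT-HSC, beside 0.659% of all genes. They were 1 gene each of 8 monocyte, 9 MHC class II and 20 glycolysis genes tested there. With the replicate block Isg15 of the 22 interferon genes was called higher, beside 0.236% of all genes. The summed level of the B cell list ranged from 899 to 3466 FPKM in LT-HSC and from 379 to 12532 FPKM in ST-HSC.

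The other called genes given here were lower in LT-HSC. The serpin Serpine2 (-1.76), Gm16758 (-1.50) and E330016A19Rik (-1.12) lost their calls with the replicate block, at adjusted p values of 0.052 to 0.055. The interleukin 1 receptor Il1r1 (-1.35), the potassium channel Kcna3 (-1.35), the spindle protein Ckap2l (-1.15), the lipid transporter Spns3 (-1.10), Bpifc (-1.97), Mdga1 (-1.47), Emid1 (-1.41), BC035044 (-2.90), 5830405N20Rik (-2.27), 1700025G04Rik (-1.62) and D2Ertd750e (-1.12) kept theirs. The calls of Il1r1, Kcna3, Mdga1, Emid1, 5830405N20Rik and D2Ertd750e were lost without replicates 4 and 5 (adjusted p = 0.055 to 0.067 by limma). Gm16758 and E330016A19Rik were not called there either (adjusted p = 0.053 and 0.058 by limma). Ckap2l, Bpifc, BC035044 and 1700025G04Rik were called there (adjusted p = 0.015 to 0.042 by limma). Gm11505 (-2.49) is uncertain. Its highest LT-HSC value was 1.32 FPKM and the next 0.3 FPKM, so it passed the minimum through ST-HSC. It lies antisense to Mpo, 512 bases of its exons (69.5%) overlap exons of Mpo, and the library protocol names no step that keeps the strand, so reads of the pair cannot be told apart. They make up 14.95% of the exon bases of Mpo.

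Set beside the other normal populations, the genes that separated the stem cells followed several courses, given here as levels with no test. Mpo was at 83.4 ± 79.8 FPKM in LT-HSC (mean ± SD, n = 5), 1059 ± 510.2 in ST-HSC (n = 5), 2241 ± 893 in MPP (n = 6), 2601 ± 1327 in CMP (n = 5), 12761 ± 1465 in GMP (n = 5) and 20.8 ± 12.3 in MEP (n = 4). Dntt was highest in MPP at 269 ± 29.4 FPKM, with 34.2 ± 25.6 in ST-HSC and 0.21 ± 0.207 in GMP. Mcpt8 stood at 30.5 ± 14.2 FPKM in ST-HSC, 33.9 ± 18.2 in MPP and 43.1 ± 15.2 in GMP, levels whose SDs overlap, and at 6.74 ± 3.46 in CMP.

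Car1 was highest in MEP at 2818 ± 202 FPKM, followed by LT-HSC at 1294 ± 963, CMP at 1010.1 ± 946, ST-HSC at 148 ± 22, MPP at 49.8 ± 43.3 and GMP at 7.5 ± 6.96. The SDs of LT-HSC and CMP overlap. Ermap and Atp1b2 had the same order of MEP first and MPP and GMP last, with Ermap at 213 ± 16.5 FPKM in MEP, 69.2 ± 25.4 in LT-HSC, 68.5 ± 60.4 in CMP, 14.2 ± 8.5 in ST-HSC and 4.77 ± 3.67 in MPP. H2afy was lowest in MEP and LT-HSC (71.8 ± 9.37 and 76.1 ± 4.65 FPKM, with overlapping SDs) and highest in MPP (619 ± 35.5 FPKM). Aurkb was at 37.2 ± 9.54 FPKM in LT-HSC and at 84.3 ± 13.2 in ST-HSC, whose level overlapped that of CMP (84.7 ± 9.21 FPKM) and exceeded that of MPP (59.7 ± 7.43 FPKM).

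**Figure D5:**
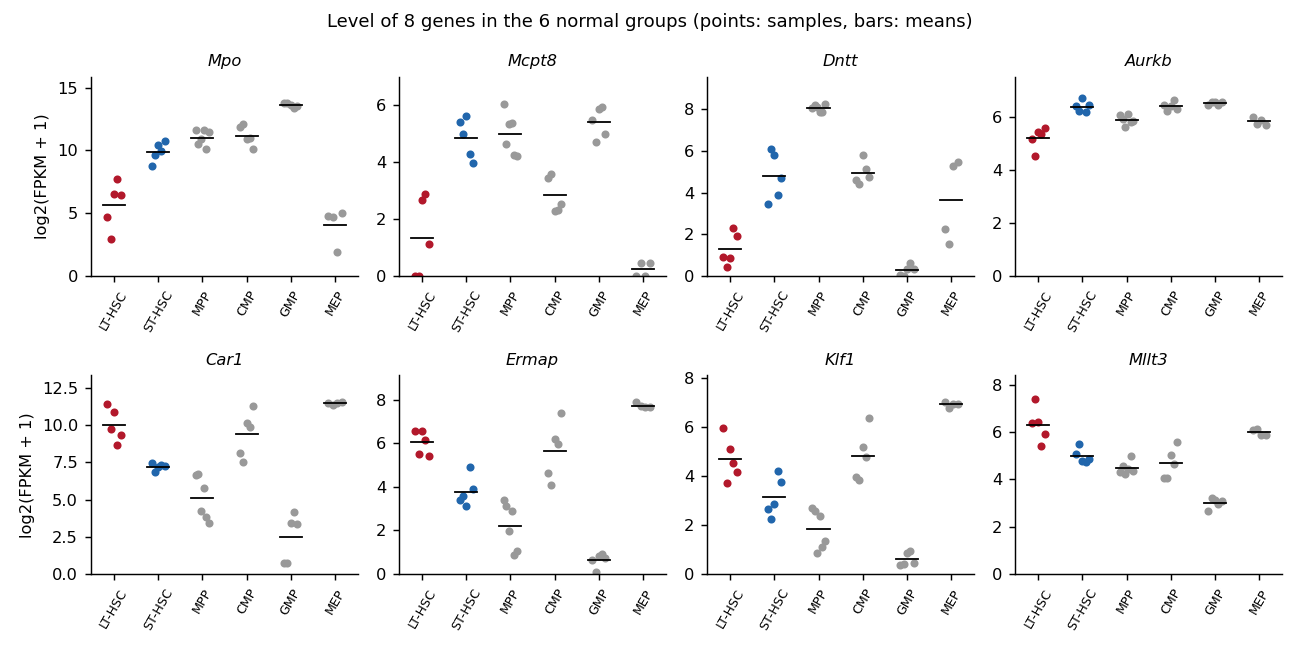
log2(FPKM + 1) of 8 genes in the samples (points) and as means (bars) of the 6 normal groups, with LT-HSC in red and ST-HSC in blue. Mpo, Mcpt8 and Dntt step up from LT-HSC to ST-HSC, and Car1, Ermap and Klf1 step down to ST-HSC and MPP and are highest in MEP.

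Mitochondrially encoded genes took 32.4% ± 5.73 (SD, n = 5) of the summed FPKM in LT-HSC and 29.5% ± 3.11 in ST-HSC (n = 5). The difference of 2.92 percentage points was within the spread between samples (exact permutation test, two-sided, p = 0.389).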

How the data were processed

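RNA sequencing of 5 LT-HSC and 5 ST-HSC samples was analysed, grouped by their GEO titles. The authors made amplified cDNA libraries, estimated transcript abundance with RSEM against mm9 per the submitters' processing notes, and deposited FPKM values with 2 decimals. The study itself used edgeR with counts from RSEM, and those were not part of this work. The aligner and annotation are not given in the sources used here. Of its 68 columns 49 were matched to a sample by name and 19 were not used. FPKM keep no read count, and no interval that needs one is given. Relative depth was estimated from 45 pairs of samples (residual SD 0.0064, log2).

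Genes that averaged 1 FPKM or more in the 10 samples were tested on log2(FPKM + 1) with limma 3.58.1 (R 4.3.3; mean-variance trend, two-sided), and p-values were adjusted by the Benjamini-Hochberg method over all genes tested. Fold changes are on the log2(FPKM + 1) scale, which understates those of low genes. Tables and figures were made with Python 3.11.15, numpy 2.4.6, pandas 2.3.3 and matplotlib 3.10.9. In data simulated for this comparison with 200 changed genes, 71 of 200 were recovered with 3 false calls at a log2 change of 1 (12448 genes), 192 with 4 false calls at a log2 change of 2 (12449 genes) and 199 with 10 at a log2 change of 3 (12437 genes), and 0 of 12456 genes were called when none was changed. Whether these recovered and false calls hold for the 10 samples, whose deviations were correlated as given below, was not tested. Positions are those of GENCODE M1 (NCBIM37). Shared sequence is the percent of 31-base windows of a gene's exons that occur in another gene.

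Each sample came from its own mouse per the study's methods, and which of its experiments a sample belongs to is not given. Samples with the same replicate number deviated together from their group means (correlations over genes of 0.14, 0.21, 0.19, 0.68 and 0.20 for numbers 1 to 5), so the numbers were treated as pairing, although the labels do not say what they share. Samples with unlike numbers correlated as well, by 0.32 for LT-HSC 3 with ST-HSC 1, 0.31 for LT-HSC 2 with ST-HSC 1 and 0.42 for LT-HSC 5 with ST-HSC 4. Each of these was higher than the correlation of that LT-HSC sample with its own number, so the correlations do not single out the number as the pairing. Each correlation between a sample of replicates 1 to 3 and one of replicates 4 and 5 was negative. The alternatives were the replicate block, the fit without replicates 4 and 5, median-ratio scaling, a late granulocyte score as covariate, all 6 normal groups in one fit, 0.1 as the pseudocount, all genes unfiltered, correction for GC content and length (also blocked), the adjusted p alone, and each sample omitted once.

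The genes named were the 15 largest rises and falls among called genes with a symbol and groups without overlap, and list members, called ones first and then those with the largest mean FPKM; further list members were named after their values were seen. The comparison and the lists were chosen with earlier results of these data known, and the mast cell and basophil list after its values were seen. Columns of 4 leukaemia groups were not analysed here, and some genes that were tested are not reported here.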

Additional observations from a re-analysis of the deposited data

Results flagged for a closer look

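In 16 of 194 groups of 5 values examined, 1 sample lay apart from the other 4 by Dixon's criterion, which chance meets in about 1 in 20 groups. ST-HSC replicate 4 was the highest of its group for S100a8 (12626 FPKM), Hbb-b1 (24164 FPKM), Ermap (28.9 FPKM), Rhd (16.5 FPKM) and Ccdc68 (0.34 FPKM) and the lowest for Mki67 (187 FPKM). ST-HSC replicate 1 was highest for 3 platelet genes, Pf4 (1110.4 FPKM), Plek (182 FPKM) and Vwf (56.6 FPKM). ST-HSC replicate 2 was lowest for Gata1 (6.77 FPKM), replicate 3 lowest for Ly6a (47.1 FPKM) and replicate 5 highest for Uhrf1 (42.7 FPKM). LT-HSC replicate 4 was highest for BC035044 (8.66 FPKM), Gm11505 (1.32 FPKM) and Satb1, a chromatin organiser of early lymphoid cells (33.7 FPKM). LT-HSC replicate 2 was highest for Cdkn1c (9.55 FPKM). What these samples share beyond the granulocyte and globin transcripts given above was not tested.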

How the results depend on the processing

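The number of calls depended on the setting, while none of the 40 called genes changed direction in any. Against 40 genes (8 higher and 32 lower in LT-HSC), 77 (30 and 47) were called with the replicate block, 113 (30 and 83) without replicates 4 and 5 of both groups, 162 (61 and 101) with the granulocyte score as covariate, 280 (95 and 185) with all 6 normal groups in one fit, 49 (22 and 27) after GC and length correction and 69 (46 and 23) after that correction with the replicate block. A pseudocount of 0.1 left 19 (5 and 14), no filter on low values 4 (0 and 4) and median-ratio scaling 1 (0 and 1), although 1317 to 1862 genes had an unadjusted p below 0.05 in these 3 fits. Leaving out 1 sample gave 0 to 88 calls, 0 to 26 of them higher and 0 to 62 lower, with 1036 to 1660 genes at an unadjusted p below 0.05. No gene was called without LT-HSC replicate 1, 2 or 3 or ST-HSC replicate 2, 3 or 5, while 88 were called without LT-HSC replicate 4, 5 without LT-HSC replicate 5, 12 without ST-HSC replicate 1 and 50 without ST-HSC replicate 4. With no fold threshold 43 genes passed. The cause was not tested.

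A few uncalled genes with log2 changes near 0 or wide spreads changed sign. Hlf had 0.14 after GC and length correction with or without the block, 0.13 after median-ratio scaling and 0.16 without replicates 4 and 5 of both groups, and -0.34 to 0.25 when 1 sample was left out. Kit had 0.0087 after GC and length correction with or without the block, 0.025 after median-ratio scaling, 0.18 without replicates 4 and 5 and -0.28 to 0.17 when 1 sample was left out. Mecom had -0.018 with the granulocyte covariate and -0.32 to 0.47 when 1 sample was left out, and Hbb-b1 -0.43 without replicates 4 and 5 and -0.75 to 1.70 when 1 sample was left out. Leaving out 1 sample also gave -0.071 to 0.335 for Gata1 and -2.60 to 0.39 for S100a8. The mitochondrial difference stayed between 1.85 and 4.86 percentage points (exact permutation p = 0.095 to 0.579) when 1 sample was left out, was 2.52 points without replicates 4 and 5 (p = 0.6 over 20 splits) and had an exact sign-flip p of 0.375 for the replicate block. The depth in reads is unknown, so the counting error of low genes could not be given.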
